A study of Solanum lycopersicum with 12 samples.

Results

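The ripening change of tomato fruit lacking normal NOR was followed from breaker to 7 days after breaker in slnor fruit. NOR encodes a NAC transcription factor required for normal ripening, and slnor carries a CRISPR mutation of it. The 6 libraries labelled slnor at these stages were taken, of 12 in all. There were 3 from slnor fruit 7 days after breaker and 3 from slnor fruit at breaker. The other 6 were 3 wild-type (WT) libraries 7 days after breaker and 3 WT libraries at breaker, and they served to test where the slnor change differed. All plants were Ailsa Craig tomato (Solanum lycopersicum) grown in a controlled greenhouse, and breaker is the stage at which colour first appears. The labels name neither the lesion in NOR nor the number of mutant lines, and give the tissue as fruit without saying which part. Whether replicates are separate plants is not stated, so a p-value here reflects spread between libraries that may be only technical.

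Tomato is a climacteric fruit, in which ripening comes with a burst of the gas ethylene. ACC synthases (ACS) and ACC oxidases (ACO) make ethylene, and its receptors restrain signalling until the gas binds them. NOR, the MADS-box factor RIN and the SBP-box factor CNR are known as regulators upstream of much of the programme. That programme includes synthesis of the red carotenoid lycopene, breakdown of the cell wall, loss of chloroplasts and formation of aroma volatiles. In strong nor mutants, fruit stay firm and do not turn red.

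Slnor fruit changed widely over the 7 days, in part as WT fruit did. Transcripts of RIN, FUL1, the carotenoid enzyme ZISO, the polygalacturonase PG2a and the alcohol dehydrogenase ADH2 rose 2-fold or more. Transcripts of the ethylene-forming ACC oxidases ACO1, ACO3 and ACO6 fell, as did 8 of 12 light-harvesting and Rubisco genes, 7 of 9 glycoalkaloid genes and all 3 polyamine synthesis genes tested. Under some alternative settings the light-harvesting count was 7 and the glycoalkaloid count was 6. Flavonoid and cuticle genes, most of which fell in WT, had median log2 fold changes of 0.12 and 0.59 in slnor. Of 20070 genes tested, 5261 rose (26.2%) and 5212 fell (26%), so 52.2% were called at a Benjamini-Hochberg adjusted p under 0.05. At least 2-fold changes were found in 833 rising genes (4.15%) and 1743 falling genes (8.68%). Changes of at least 4-fold numbered 267 upward and 684 downward. Of the genes tested, 74 had no count at breaker and some count later, and 144 had some count at breaker and none later. In 12075 genes (60.2%) the CPM of the 2 slnor groups did not overlap.

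CPM is a gene's count rescaled by the library's size and its TMM factor, and the stage change is a log2 fold change, 7 days after breaker over breaker. Rises, falls and differences between changes are all given on that log2 scale. The standard error (SE) was taken as its absolute value over the root of edgeR's quasi-likelihood F. Library totals lay between 57880241 and 64580114 counts in slnor 7 days after breaker, and between 51414686 and 69124795 counts in slnor at breaker. The median log2 fold change over all genes was −0.01. With library totals alone that median was −0.10, and 36.7% of the genes called were higher, against 50.2% with TMM. In fruit tissue, fewer cells of a type and less RNA per cell cannot be told apart.

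The slnor change was smaller than the WT change over all genes. The median size of the log2 fold change was 0.30 in slnor and 0.45 in WT, and 52.2% of genes were called in slnor against 65.3% in WT (33.2% upward and 32.1% downward). At least 2-fold changes made up 12.8% of genes in slnor and 21.6% in WT. Across the 20070 genes, which are not independent replicates, the slnor and WT changes had a Pearson correlation of 0.47 and a Spearman correlation of 0.56. Over the 10975 genes with a mean of at least 10 CPM the Pearson correlation was 0.67. No library enters both changes, although the TMM scaling and the fit are shared.

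**Figure D1:**
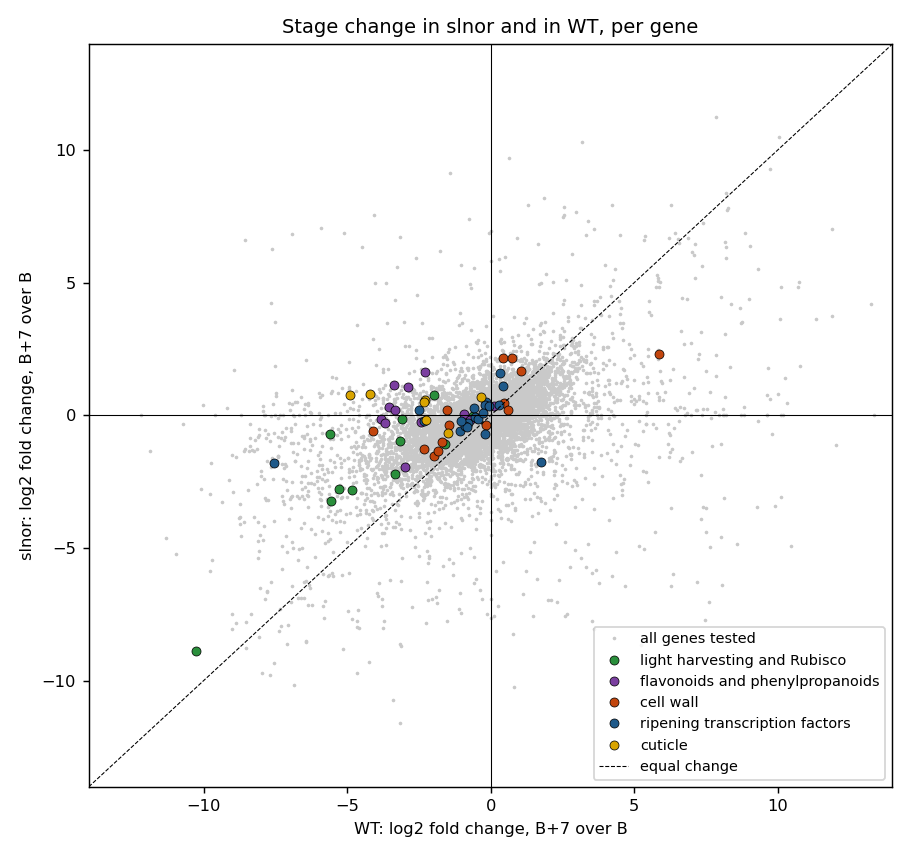
Log2 fold change from breaker (B) to 7 days after breaker (B+7) of each of the 20070 genes tested, with slnor on the vertical axis and WT on the horizontal axis; coloured points are members of 5 gene lists and the dashed line marks equal change. In WT 11 of 12 flavonoid genes and 6 of 7 cuticle genes fell, against 5 and 1 in slnor, and most light-harvesting points lie above the dashed line. Values far from 0 for genes with no count in a group depend on the fit's prior count.

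Of the 1406 genes that rose at least 2-fold in WT (7.01% of genes tested), 829 also rose in slnor (59%), and 487 of these did so at least 2-fold (34.6% of the 1406). Another 442 were not called (31.4%) and 135 fell (9.6%). Their median log2 fold change was 0.75 in slnor and 1.81 in WT. Of the 2922 genes that fell at least 2-fold in WT (14.6%), 1908 also fell in slnor (65.3%), 1152 of them at least 2-fold (39.4% of the 2922). The remainder divided into 862 not called (29.5%) and 152 that rose (5.2%), and the medians were −0.85 in slnor and −2.0 in WT. These genes were picked for a large WT change, so the slnor and WT medians are given as a description with no test.

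**Figure D2:**
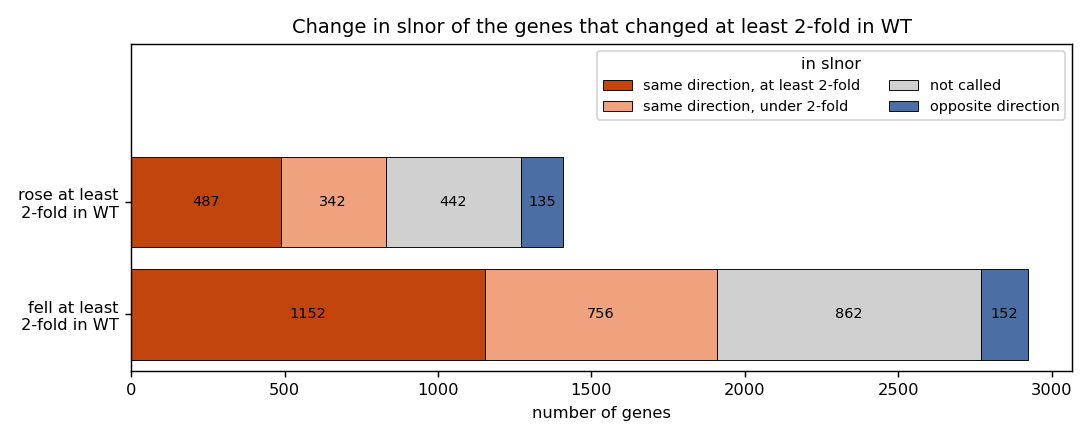
Number of genes (horizontal axis) that rose or fell at least 2-fold in WT, divided by what they did in slnor over the same 7 days. Of 1406 WT risers 487 rose at least 2-fold in slnor and 135 fell, and of 2922 WT fallers 1152 fell at least 2-fold and 152 rose.

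Seen from slnor, 487 of the 833 genes that rose at least 2-fold also rose at least 2-fold in WT (58.5%), and 73 fell in WT (8.76%). Of the 1743 that fell at least 2-fold in slnor, 1152 did so in WT (66.1%) and 130 rose in WT (7.46%). Changes of at least 2-fold in opposite directions were found in 149 genes, of which 54 rose in slnor and fell in WT and 95 fell in slnor and rose in WT. The difference between the stage changes, slnor minus WT, was tested as an interaction. It was positive in 4382 genes (21.8%) and negative in 4092 (20.4%), 42.2% in all. It was at least 2-fold in 1506 positive cases (7.5%) and 855 negative cases (4.26%), or 11.8% in all. With library totals alone, 41.6% of the differences called were positive, against 51.7% with TMM.

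The NOR transcript itself was present in slnor fruit at both stages and declined. NOR (Solyc10g006880.3; the digits after Solyc give the chromosome) had 553, 577 and 515 CPM 7 days after breaker, against 776, 792 and 896 CPM at breaker. All 3 later libraries lay below all 3 breaker libraries, and the log2 fold change was −0.58 (adjusted p = 2.56e-08, SE 0.048). In WT the change was −1.05, and the difference between the changes was 0.46 (adjusted p = 3.38e-05, SE 0.068). A small lesion can leave a transcript in place, so these values do not check the genotype. As to the tissue, the fruit gene E8 ranked 3rd of all genes by mean FPKM (a level scaled for gene length and library size) in slnor at each stage, at 4687 FPKM 7 days after breaker and 6100 FPKM at breaker.

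Regulators of ripening moved both ways in slnor. For this and the later lists, the shares over all genes tested were 26.2% rising and 26% falling in slnor. In WT these shares were 33.2% and 32.1%. Of 20 transcription factor and related genes on the list, 8 rose, 9 fell and 3 did not pass, with a median log2 fold change of −0.09. In WT 4 rose, 14 fell and 2 did not pass. The difference between the changes was positive in 17, negative in 1 and not called in 2. With library totals alone, 7 rose and 10 fell in slnor. Without replicate 1 of 7 days after breaker 8 rose and 7 fell, and without replicate 2 or 3 of breaker 7 rose and 7 fell.

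The 2 largest rises on that list belonged to MADS-box factors that act together on ripening promoters. RIN (Solyc05g012020.4) had 651, 644 and 628 CPM 7 days after breaker, against 297, 279 and 316 CPM at breaker. FUL1 (Solyc06g069430.3), a partner of RIN, had 689.9, 698 and 705 CPM 7 days after breaker, against 239, 214 and 239 CPM at breaker. In each case the 2 groups lay far apart, and the log2 fold changes were 1.11 (adjusted p = 1.20e-12, SE 0.042) for RIN and 1.60 (adjusted p = 6.33e-15, SE 0.039) for FUL1. By 7 days FUL1 averaged 698 ± 7.62 CPM in slnor and 724 ± 12.9 CPM in WT (SD, n = 3 each), whereas at breaker it averaged 231 ± 14.5 CPM in slnor and 585 ± 12.6 CPM in WT. The slnor change exceeded the WT change by 1.29 (adjusted p = 9.34e-12, SE 0.054) for FUL1 and by 0.68 (adjusted p = 6.93e-08, SE 0.058) for RIN. FUL2 (Solyc03g114830.3), the close relative of FUL1, rose by 0.37 (adjusted p = 1.53e-07, SE 0.036). TAGL1 (Solyc07g055920.4), a MADS-box factor of fruit growth and ripening, rose by 0.39 (adjusted p = 2.61e-07, SE 0.039), and its change in WT was −0.19.

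CNR and AP2a rose slightly in slnor and fell in WT, and the demethylase gene DML2 fell less in slnor than in WT. CNR (Solyc02g077920.4) had 439, 432 and 428 CPM 7 days after breaker, against 313, 298 and 307 CPM at breaker, a log2 fold change of 0.50 (adjusted p = 3.40e-10, SE 0.03). AP2a (Solyc03g044300.3), which restrains ethylene synthesis, had 255, 268 and 262 CPM 7 days after breaker, against 216, 217 and 223 CPM at breaker, a change of 0.26 (adjusted p = 1.20e-06, SE 0.029), or 0.17 with library totals alone. Every later library exceeded every breaker library for both genes, while WT changed by −0.17 for CNR and −0.57 for AP2a. DML2 (Solyc10g083630.2), which removes DNA methylation in ripening fruit, had 1050, 1052 and 1062 CPM 7 days after breaker, against 1228, 1225 and 1232 CPM at breaker. It fell by 0.22 (adjusted p = 7.36e-06, SE 0.029) in slnor, and its WT change was −1.03 (adjusted p = 1.07e-14). The differences between the changes were 0.67 (adjusted p = 1.33e-09, SE 0.042) for CNR, 0.82 (adjusted p = 8.92e-11, SE 0.041) for AP2a and 0.81 (adjusted p = 1.17e-10, SE 0.042) for DML2.

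The NAC genes NAC1 and NOR-like1 both fell in slnor, whereas in WT NAC1 rose and NOR-like1 fell. NAC1 (Solyc04g009440.3) had 11.3, 11.7 and 11.9 CPM 7 days after breaker, against 43.9, 36.6 and 38.5 CPM at breaker. It changed in slnor by −1.77 (adjusted p = 2.50e-11, SE 0.085), while in WT it averaged 21.7 ± 2.5 CPM 7 days after breaker and 6.43 ± 0.31 CPM at breaker, a rise of 1.76. It was the only member of the 20 with a negative difference, −3.53 (adjusted p = 1.06e-12, SE 0.125). NOR-like1 (Solyc07g063420.3), a NAC factor that also promotes ripening, had 145, 148 and 126 CPM 7 days after breaker, against 184, 185 and 185 CPM at breaker, a log2 fold change of −0.41 (adjusted p = 1.84e-06, SE 0.048). Its change in WT was −0.88, and the difference was 0.47 (adjusted p = 2.79e-05, SE 0.068).

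Ethylene synthesis genes divided by enzyme in slnor, with the ACC synthase genes ACS2 and ACS4 rising and the ACC oxidase genes ACO1, ACO3 and ACO6 falling. Of 10 genes tested, 3 rose, 6 fell and 1 did not pass, with a median log2 fold change of −0.92, which stayed −0.92 with the gene of no count at its bound. In WT 2 rose and 6 fell, and the difference between the changes was positive in 4, negative in 3 and not called in 3.

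ACC synthase makes ACC, the direct precursor of ethylene. ACS2 (Solyc01g095080.3) had 377, 393 and 366 CPM 7 days after breaker, against 227, 207 and 247 CPM at breaker, and ACS4 (Solyc05g050010.3) had 311, 335 and 313 CPM 7 days after breaker, against 166, 174 and 169 CPM at breaker. Both rose in every later library, by 0.74 (adjusted p = 1.15e-09, SE 0.048) for ACS2 and 0.91 (adjusted p = 1.24e-12, SE 0.035) for ACS4. In WT, ACS2 changed by −0.04 (adjusted p = 0.461), so that the difference was 0.78 (adjusted p = 6.98e-08, SE 0.067), and ACS2 still averaged 379 ± 13.7 CPM in slnor 7 days after breaker and 843 ± 5.7 CPM in WT. ACS4 rose further in WT, by 1.74, and the difference was −0.83 (adjusted p = 5.81e-10, SE 0.049). ACS8 (Solyc03g043890.3), looked at after its values were seen, had 59 counts over the 3 later libraries and none at breaker. That made it at least 20.4-fold higher later, taking 3 counts over the group in place of 0, though its mean was only 0.319 ± 0.0928 CPM.

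ACC oxidase turns ACC into ethylene. ACO1 (Solyc07g049530.3), the most abundant named one per length at 1016 FPKM 7 days after breaker and 2515 FPKM at breaker, had 1563, 1549 and 1560 CPM 7 days after breaker, against 3603, 3544 and 3718 CPM at breaker. It changed by −1.22 (adjusted p = 4.23e-15, SE 0.029) in slnor and −1.34 in WT. The difference of 0.12 (adjusted p = 0.0215, SE 0.04) was lost with library totals alone (adjusted p = 0.339) and without WT replicate 1 of either stage (adjusted p = 0.0591 and 0.0615). ACO6 (Solyc02g036350.3) had 138, 136 and 137 CPM 7 days after breaker, against 812, 1034 and 833 CPM at breaker. No later value came near a breaker value, and the log2 fold change was −2.71 (adjusted p = 7.77e-15, SE 0.068), against −3.84 in WT and a difference of 1.13 (adjusted p = 3.10e-08, SE 0.091). ACO3 (Solyc07g049550.3) lies close to ACO1 on chromosome 7 and may share reads with it. It had 57.4, 58.7 and 57.2 CPM 7 days after breaker, against 159, 165 and 157 CPM at breaker, a change of −1.47 (adjusted p = 1.37e-14, SE 0.039), and its fall was the larger one in slnor (difference −0.20 (adjusted p = 0.00695, SE 0.054)).

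**Figure D3:**
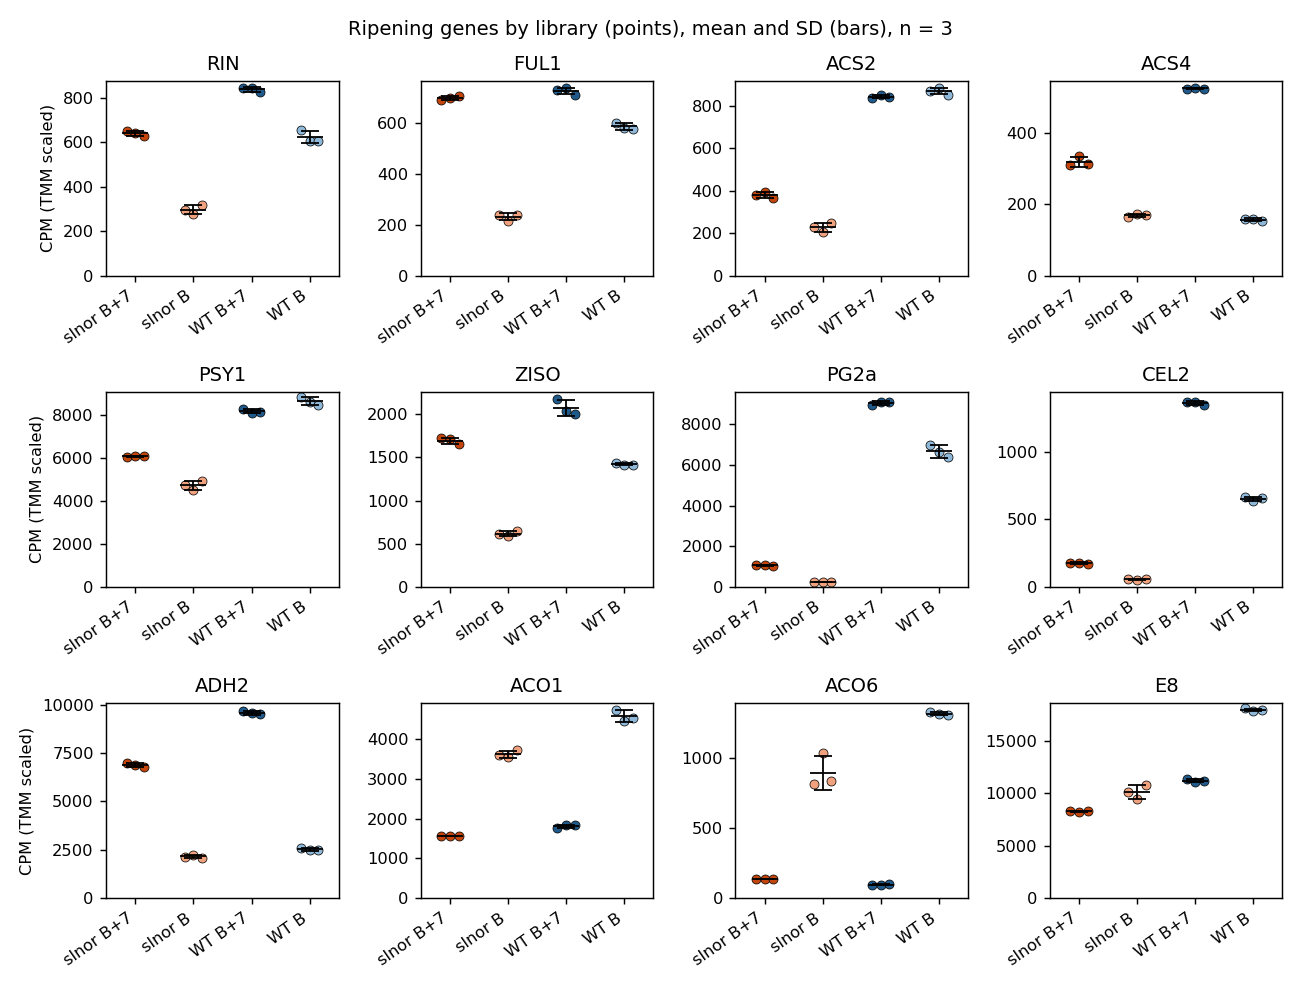
CPM (vertical axes, TMM scaled) of 12 ripening genes in each library, with the mean and SD of 3 libraries per group, in the order slnor B+7, slnor B, WT B+7 and WT B. RIN, FUL1, ACS2, ACS4, PSY1, ZISO, PG2a, CEL2 and ADH2 are higher at B+7 than at B in slnor, and ACO1, ACO6 and E8 are lower; PG2a stays below its WT level at both stages.

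Most ethylene receptor and response genes were called in slnor, but with changes under 2-fold. Of 20 tested, 6 rose, 11 fell and 3 did not pass (median −0.15). None was called at 2-fold or more, beside 12.8% of all genes tested. With library totals alone 4 rose and 12 fell. In WT 4 rose, 9 fell and 7 did not pass. The receptor gene NR (Solyc09g075440.4), whose protein is degraded once ethylene binds, had 824, 858 and 838 CPM 7 days after breaker, against 767, 699 and 772 CPM at breaker. The groups did not overlap and the rise was 0.17 (adjusted p = 5.52e-04, SE 0.035), or 0.08 with library totals alone, against a change of −0.23 in WT (difference 0.40 (adjusted p = 5.47e-06, SE 0.049)). ETR4 (Solyc06g053710.3), another receptor of ripening fruit, had 658, 652 and 678 CPM 7 days after breaker, against 814, 829 and 804 CPM at breaker, a change of −0.30 (adjusted p = 2.37e-07, SE 0.03) in slnor and of −0.50 in WT. The difference was 0.20 (adjusted p = 9.01e-04, SE 0.042), or 0.13 with library totals alone.

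E4 and E8 are ethylene-responsive fruit genes long used as markers of the ethylene response. E4 (Solyc03g111720.3) had 1571, 1600 and 1777 CPM 7 days after breaker, against 2539, 2292 and 2425 CPM at breaker, and E8 (Solyc09g089580.4) had 8292, 8208 and 8313 CPM 7 days after breaker, against 10130, 9416 and 10801 CPM at breaker. Both were lower in every later library, with changes of −0.55 (adjusted p = 1.85e-08, SE 0.045) for E4 and −0.29 (adjusted p = 1.96e-06, SE 0.034) for E8. The WT changes were −1.10 for E4 and −0.68 for E8, and the differences were 0.55 (adjusted p = 2.21e-06, SE 0.063) for E4 and 0.39 (adjusted p = 5.42e-06, SE 0.049) for E8.

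Genes of carotenoid synthesis up to lycopene mostly rose in slnor. Of 13 tested, 9 rose, 1 fell and 3 did not pass, with a median log2 fold change of 0.36, against a median of −0.01 over all genes. In WT 7 rose, 3 fell and 3 did not pass, and the difference between the changes was positive in 4, negative in 3 and not called in 6. Without WT replicate 2 of 7 days after breaker or WT replicate 1 of breaker, 1 rather than 3 fell in WT, and 2 fell without WT replicate 3 of either stage.

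ZISO (Solyc12g098710.2), the isomerase of zeta-carotene, had 1721, 1709 and 1651 CPM 7 days after breaker, against 615, 584 and 649.9 CPM at breaker. It was the only member to rise 2-fold, by 1.46 (adjusted p = 1.52e-14, SE 0.039), and exceeded the WT rise of 0.55 by 0.91 (adjusted p = 6.49e-10, SE 0.054). PSY1 (Solyc03g031860.3), the phytoene synthase that commits precursors to carotenoids in fruit, had 6040, 6059 and 6077 CPM 7 days after breaker, against 4725, 4503 and 4908 CPM at breaker. It rose by 0.36 (adjusted p = 1.22e-08, SE 0.028), while WT changed by −0.08 (adjusted p = 0.021), a difference of 0.44 (adjusted p = 1.30e-07, SE 0.04). PSY1 was abundant at both slnor stages, at 3124 FPKM 7 days after breaker and 2586 FPKM at breaker. CRTISO (Solyc10g081650.2), the isomerase that yields lycopene, had 395, 398 and 399.9 CPM 7 days after breaker, against 295, 276 and 291 CPM at breaker. Its rise of 0.47 (adjusted p = 2.17e-09, SE 0.032) stood beside one of 0.46 in WT, and the difference of 0.01 (adjusted p = 0.893, SE 0.045) did not pass. GGPS2 (Solyc04g079960.1), which supplies geranylgeranyl diphosphate, was the member that fell, with 10.2, 10.1 and 11.7 CPM 7 days after breaker, against 24.4, 21.1 and 24.1 CPM at breaker. Its change was −1.12 (adjusted p = 5.42e-10, SE 0.069) in slnor and −0.78 in WT (difference −0.34 (adjusted p = 0.00546, SE 0.09)).

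Past lycopene, the list divided evenly. Of 10 genes of cyclisation and xanthophyll formation, 4 rose, 4 fell and 2 did not pass in slnor (median −0.19), whereas 2 rose and 7 fell in WT (median −0.83). Both beta-carotene hydroxylase genes rose. BCH2 (Solyc03g007960.3) had 48.6, 50.6 and 49.6 CPM 7 days after breaker, against 22, 21.6 and 20.6 CPM at breaker, a change of 1.21 (adjusted p = 3.67e-11, SE 0.06), and differed from WT by 1.36 (adjusted p = 1.14e-09, SE 0.084). CrtR-b1 (Solyc06g036260.3) had 72, 71.8 and 66.7 CPM 7 days after breaker, against 33.1, 30.5 and 36.2 CPM at breaker, a change of 1.07 (adjusted p = 3.75e-11, SE 0.054) in slnor and 0.89 in WT. The lycopene epsilon-cyclase gene LCYE (Solyc12g008980.3) had 0.061, 0.0676 and 0.0651 CPM 7 days after breaker, against 1.92, 1.51 and 1.84 CPM at breaker. It was nearly off later in slnor, a change of −4.72 (adjusted p = 1.47e-06, SE 0.546), and likewise in WT (−5.67). CYCB (Solyc06g074240.3), the chromoplast beta-cyclase gene, had 4.71, 4.9 and 2.93 CPM 7 days after breaker, against 4.76, 6.74 and 6.62 CPM at breaker. These groups overlapped, and its change of −0.53 (adjusted p = 0.022, SE 0.183) was lost without replicate 3 of 7 days after breaker or without replicate 2 or 3 of breaker (adjusted p = 0.0793 to 0.118).

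Cell wall genes parted into rising and falling members. All 14 tested were called in slnor, 7 upward and 7 downward. At least 2-fold changes were found in 4 rising and 3 falling members, beside 4.15% and 8.68% of all genes tested. In WT 6 rose and 8 fell, and the difference between the changes was positive in 9, negative in 3 and not called in 2.

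The rising members included enzymes that degrade pectin and glucan, of which PL was already abundant at breaker in slnor. PG2a (Solyc10g080210.2), the fruit polygalacturonase, had 1078, 1071 and 1041 CPM 7 days after breaker, against 226, 234 and 249.9 CPM at breaker. All later libraries were more than 4-fold above all breaker libraries, a change of 2.17 (adjusted p = 8.35e-17, SE 0.038). In WT PG2a averaged 9056 ± 82.3 CPM 7 days after breaker and 6672 ± 309 CPM at breaker, a change of 0.44, and the difference was 1.73 (adjusted p = 1.13e-13, SE 0.051). The late slnor level thus remained below the WT breaker level. CEL2 (Solyc09g010210.3), an endo-glucanase of ripe fruit, had 179.8, 175 and 169.8 CPM 7 days after breaker, against 55.2, 47.2 and 59.6 CPM at breaker, a change of 1.69 (adjusted p = 3.61e-13, SE 0.058) against 1.06 in WT (difference 0.63 (adjusted p = 5.67e-06, SE 0.079)). RGL (Solyc11g011300.2), a rhamnogalacturonan lyase, had 4.44, 4.73 and 5.45 CPM 7 days after breaker, against 1.24, 0.993 and 1.03 CPM at breaker. Its change was 2.17 (adjusted p = 2.20e-10, SE 0.124), and it exceeded that of WT by 1.41 (adjusted p = 1.89e-06, SE 0.159). XYL1 (Solyc10g047030.3) had 3.45, 2.16 and 2.64 CPM 7 days after breaker, against 0.233, 0.817 and 0.581 CPM at breaker, a rise of 2.31 (adjusted p = 3.81e-07, SE 0.238). In WT XYL1 averaged 125 ± 3.64 CPM 7 days after breaker and 2.13 ± 0.296 CPM at breaker, and the difference was −3.56 (adjusted p = 4.05e-07, SE 0.353). PL (Solyc03g111690.4), the pectate lyase whose loss keeps fruit firm, had 3269, 3245 and 3095 CPM 7 days after breaker, against 2276, 2158 and 2556 CPM at breaker. At 1718 FPKM 7 days after breaker and 1330 FPKM at breaker it was the most abundant named wall gene per length. Its rise of 0.46 (adjusted p = 2.25e-07, SE 0.045) stood beside 0.45 in WT, a difference of 0.01 that did not pass (adjusted p = 0.956).

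The beta-galactosidase gene TBG4 (Solyc12g008840.2) and the endo-mannanase gene MAN4a (Solyc01g008710.5.1) were low throughout in slnor. TBG4 had 28.2, 26.5 and 25.3 CPM 7 days after breaker, against 22.5, 23.8 and 22.4 CPM at breaker, a change of 0.22 (adjusted p = 0.00152, SE 0.051), or 0.13 with library totals alone. MAN4a had 40.6, 38.3 and 35.3 CPM 7 days after breaker, against 61.7, 44.4 and 66.4 CPM at breaker, a change of −0.60 (adjusted p = 7.71e-05, SE 0.099). In WT, where both began higher, TBG4 averaged 175 ± 2.17 CPM 7 days after breaker and 500.5 ± 29.9 CPM at breaker, and MAN4a 85.2 ± 0.632 CPM 7 days after breaker and 1442 ± 55.1 CPM at breaker. The differences were 1.74 (adjusted p = 3.41e-12, SE 0.068) for TBG4 and 3.48 (adjusted p = 4.23e-12, SE 0.138) for MAN4a. Besides MAN4a, 6 wall genes fell in slnor, among them the endo-glucanase CEL1 (Solyc08g081620.4), the polygalacturonase beta-subunit PG-beta (Solyc05g005560.4), the pectin esterase PE1 (Solyc07g064190.3) and the expansin EXP1 (Solyc06g051800.3). CEL1 had 10.6, 10.6 and 9.16 CPM 7 days after breaker, against 19.8, 27.2 and 25.2 CPM at breaker, a change of −1.25 (adjusted p = 6.43e-06, SE 0.165) and a difference from WT of 1.06 (adjusted p = 0.00132, SE 0.23). PG-beta had 66.9, 63.1 and 59.6 CPM 7 days after breaker, against 145, 195 and 141 CPM at breaker, a change of −1.34 (adjusted p = 1.77e-09, SE 0.09) and a difference of 0.48 (adjusted p = 0.00624, SE 0.129). PE1, near 1 CPM at breaker, changed by −1.53 (adjusted p = 0.00189, SE 0.36). EXP1, which loosens walls in ripening fruit, had 741, 738 and 719 CPM 7 days after breaker, against 963, 829.8 and 1017 CPM at breaker, a change of −0.35 (adjusted p = 2.18e-05, SE 0.052). Its difference from WT, −0.19 (adjusted p = 0.0484, SE 0.074), was lost with RLE scaling, with the replicate number as a block and without any 1 library other than slnor breaker replicate 2 or WT breaker replicate 1 (adjusted p up to 0.154).

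Aroma genes moved both ways, beside 26.2% of all genes tested rising and 26% falling in slnor. Of 13 volatile genes tested, 5 rose, 5 fell and 3 did not pass in slnor (median −0.05, or 0.07 without breaker replicate 3), and 5 rose and 6 fell in WT. ADH2 (Solyc06g059740.4), an alcohol dehydrogenase that acts on flavour aldehydes, had 6962, 6885 and 6782 CPM 7 days after breaker, against 2124, 2235 and 2084 CPM at breaker. The groups lay far apart, with means 3.2-fold apart and a change of 1.68 (adjusted p = 5.51e-17, SE 0.028). The WT change was 1.94, and the difference was −0.26 (adjusted p = 3.99e-05, SE 0.039). LOXC (Solyc01g006540.4), the lipoxygenase of green-leaf volatiles, had 83.1, 74 and 63.5 CPM 7 days after breaker, against 81.6, 58.5 and 87.5 CPM at breaker. These groups overlapped and the change of −0.05 did not pass (adjusted p = 0.762), although without breaker replicate 2 it was −0.20 (adjusted p = 0.0344). The LOXC change was −1.59 in WT, and the difference was 1.54 (adjusted p = 3.36e-07, SE 0.151). LOXA (Solyc08g014000.3), chosen after its values were seen, had 1232, 1165 and 1071 CPM 7 days after breaker, against 1354, 1221 and 1387 CPM at breaker. It changed by −0.19 (adjusted p = 0.00466, SE 0.051) with overlapping groups, against −2.17 in WT (difference 1.97 (adjusted p = 1.80e-12, SE 0.073)). AADC1A (Solyc08g068680.4), an aromatic amino acid decarboxylase at the start of phenylalanine-derived volatiles, had 5.6, 6.07 and 5.44 CPM 7 days after breaker, against 22, 17 and 20.1 CPM at breaker. It fell by 1.79 (adjusted p = 3.16e-08, SE 0.151) and differed from WT by −1.68 (adjusted p = 1.02e-05, SE 0.221). CTOMT1 (Solyc10g005060.4), a methyltransferase that forms guaiacol, had 1.1, 1.39 and 0.862 CPM 7 days after breaker, against 2.37, 4.31 and 3.36 CPM at breaker, a change of −1.59 (adjusted p = 1.22e-05, SE 0.221).

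Most flavonoid genes fell in WT, while they moved both ways in slnor. Of 12 tested, 6 rose, 5 fell and 1 did not pass in slnor, with a median log2 fold change of 0.12. In WT 1 rose and 11 fell, with a median of −2.93. The difference between the changes was positive in 11 and not called in 1. The slnor count of falling members was 3 rather than 5 without replicate 2 of 7 days after breaker or replicate 3 of breaker. Summed over the 12 genes, slnor had 2487, 2368 and 2433 CPM 7 days after breaker, against 2077, 2012 and 2181 CPM at breaker. WT sums were 1268, 1345 and 1297 CPM later and 6601, 6801 and 6259 CPM at breaker, so slnor began well below WT.

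MYB12 (Solyc01g079620.4), the MYB factor that switches on flavonol genes in fruit peel, had 24.4, 28.5 and 24.3 CPM 7 days after breaker, against 11.8, 10.5 and 12.5 CPM at breaker. The groups did not overlap, and MYB12 rose by 1.15 (adjusted p = 4.71e-09, SE 0.083). In WT it averaged 7.33 ± 0.645 CPM 7 days after breaker and 75.7 ± 5.17 CPM at breaker, a change of −3.37, and the difference was 4.51 (adjusted p = 3.33e-14, SE 0.121). Chalcone synthase makes the first flavonoid. CHS2 (Solyc05g053550.3) had 311, 283 and 297 CPM 7 days after breaker, against 102, 80.3 and 105 CPM at breaker, and CHS1 (Solyc09g091510.3) had 150.1, 138 and 144 CPM 7 days after breaker, against 114, 97 and 136 CPM at breaker. CHS2 rose by 1.64 (adjusted p = 1.27e-11, SE 0.075) and CHS1 by 0.31 (adjusted p = 0.00314, SE 0.079), or by 0.20 without breaker replicate 2, while the WT changes were −2.29 and −3.54. The differences were 3.93 (adjusted p = 3.59e-14, SE 0.106) for CHS2 and 3.85 (adjusted p = 1.17e-13, SE 0.115) for CHS1. CHS1 and CHS2 are close copies whose reads could be split between them. The flavanone hydroxylase F3H (Solyc02g083860.3), chosen after its values were seen, had 148, 139 and 140.2 CPM 7 days after breaker, against 155, 149 and 167 CPM at breaker. Its change of −0.14 (adjusted p = 0.0307, SE 0.052), −0.23 with library totals alone, was lost without replicate 2 or 3 of 7 days after breaker or replicate 3 of breaker (adjusted p = 0.0898 to 0.161), and its WT change was −3.82 (difference 3.68 (adjusted p = 2.67e-15, SE 0.075)). CHI1 (Solyc05g010320.4), a chalcone isomerase gene, was below 2 CPM on average in both slnor groups and changed by −1.95 (adjusted p = 0.00808, SE 0.564).

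Cuticle genes, which also mark the epidermis, mostly fell in WT and mostly did not fall in slnor. Of 7 tested, 3 rose, 1 fell and 3 did not pass (median 0.59), whereas 6 fell and 1 did not pass in WT (median −2.29). The difference between the changes was positive in 6 and not called in 1. The slnor counts depended on the setting. With library totals alone, or without replicate 1 of 7 days after breaker or replicate 3 of breaker, 2 fell, and with the 6 slnor libraries alone 5 rose. Without replicate 1 or 2 of 7 days after breaker or replicate 1 of breaker, 2 rose. CER6 (Solyc02g085870.3), an elongase of wax chains, had 106, 109.8 and 105 CPM 7 days after breaker, against 69, 70.3 and 74.3 CPM at breaker. It rose by 0.59 (adjusted p = 1.07e-09, SE 0.038) in slnor, against a change of −2.29 in WT, a difference of 2.87 (adjusted p = 2.67e-15, SE 0.054). Summed over the 7 genes tested, cuticle transcripts in slnor reached 329, 333 and 316 CPM 7 days after breaker, against 281, 273 and 286 CPM at breaker. WT sums were 169, 170.5 and 171 CPM later and 703, 739.8 and 710.4 CPM at breaker, so slnor began well below WT. Several flavonoid enzymes are active in the peel, and the part of epidermis content in either group's values was not tested.

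**Figure D4:**
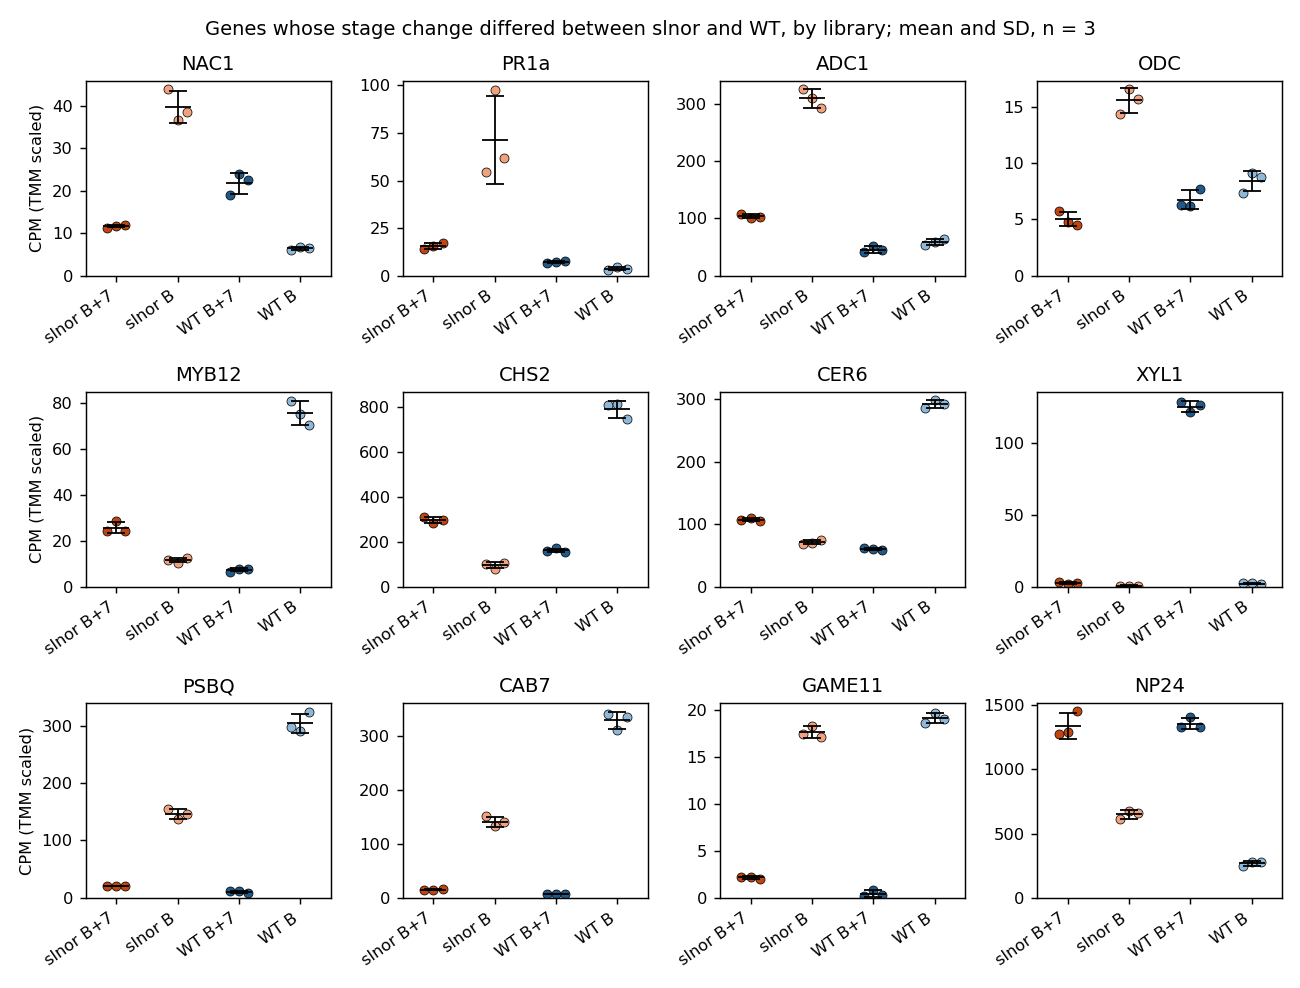
CPM (vertical axes, TMM scaled) in each library of 12 genes whose stage change differed between slnor and WT, with the mean and SD of 3 libraries per group, in the order slnor B+7, slnor B, WT B+7 and WT B. NAC1 and PR1a are lower at B+7 than at B in slnor and higher in WT; MYB12, CHS2 and CER6 are higher at B+7 in slnor and lower in WT. These 12 genes were chosen for the plot after their values were seen.

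Most photosystem, light-harvesting and Rubisco genes fell in slnor, and the fall in WT was larger for most. Of 12 tested, 8 fell, none rose and 4 did not pass (median −1.01, the same with the gene of no count at its bound). Falls of at least 2-fold were found in 6, beside 8.68% of all genes tested. With RLE scaling, with no low-count filter or in the 6 slnor libraries alone, 7 rather than 8 fell. The count was also 7 without replicate 1 or 2 of 7 days after breaker or replicate 1 or 3 of breaker. In WT all 12 fell (median −3.25), and the difference between the changes was positive in 10 and not called in 2. Summed over the 12 genes, slnor had 364, 359 and 373 CPM 7 days after breaker, against 1012, 898 and 939.7 CPM at breaker. WT sums were 315, 314 and 310.0 CPM later and 1429, 1336 and 1427 CPM at breaker.

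CAB7 (Solyc10g006230.3), a chlorophyll-binding antenna protein gene, had 13.8, 15.2 and 16.1 CPM 7 days after breaker, against 151, 133 and 140.1 CPM at breaker. It fell by 3.24 (adjusted p = 2.78e-16, SE 0.062), with a difference from WT of 2.32 (adjusted p = 3.39e-12, SE 0.09). PSBQ (Solyc02g079950.3), of the oxygen-evolving complex, had 20, 21.3 and 20.4 CPM 7 days after breaker, against 154, 137 and 146 CPM at breaker. The change was −2.82 (adjusted p = 3.53e-14, SE 0.081), and −4.82 in WT, a difference of 2.0 (adjusted p = 4.75e-10, SE 0.115). RBCS-2A (Solyc03g034220.3), which encodes a small subunit of Rubisco and was chosen after its values were seen, had 64.5, 61 and 59.2 CPM 7 days after breaker, against 306, 275 and 272 CPM at breaker. It fell by 2.21 (adjusted p = 2.29e-15, SE 0.05), less than in WT by 1.14 (adjusted p = 1.13e-09, SE 0.07). RBCS1 (Solyc02g063150.3), another small-subunit gene, changed by −2.78 (adjusted p = 1.98e-05, SE 0.406), and its difference of 2.49 (adjusted p = 0.00957, SE 0.715) was lost with DESeq2 (adjusted p = 0.0679) and was 7.92 without WT replicate 3 of 7 days after breaker. CAB5 (Solyc12g006140.2), also picked after its values were seen, had 191 counts at breaker and none 7 days later, which made it at least 61.9-fold lower later. PSBO (Solyc02g065400.3), the most abundant named photosystem gene by mean CPM over all libraries, had 171, 164 and 177 CPM 7 days after breaker, against 185, 176 and 185 CPM at breaker. These overlapped, and its change of −0.10 (adjusted p = 0.0438, SE 0.038), −0.19 with library totals alone, was lost with RLE scaling, with no low-count filter, in the 6 slnor libraries alone and without replicate 1 or 2 of 7 days after breaker or replicate 1 or 3 of breaker (adjusted p up to 0.191). Its difference from WT was 0.39 (adjusted p = 1.48e-05, SE 0.053).

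Chlorophyll breakdown genes hardly moved in slnor. Of 5 tested, 1 rose, 2 fell and 2 did not pass (median −0.07). In WT 1 rose, 3 fell and 1 did not pass (median −0.11), and the difference was positive in 2 and not called in 3. SGR1 (Solyc08g080090.3), the STAY-GREEN gene that starts the removal of chlorophyll, had 480.3, 486 and 437 CPM 7 days after breaker, against 456, 382 and 466 CPM at breaker. The groups overlapped, and the change of 0.11 did not pass (adjusted p = 0.139). Without replicate 3 of 7 days after breaker or replicate 3 of breaker it was 0.16 and called (adjusted p = 0.0453 and 0.0362), and 2 rather than 1 of the 5 then rose. In WT SGR1 changed by 0.02, and neither that change nor the difference of 0.09 passed.

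**Figure D5:**
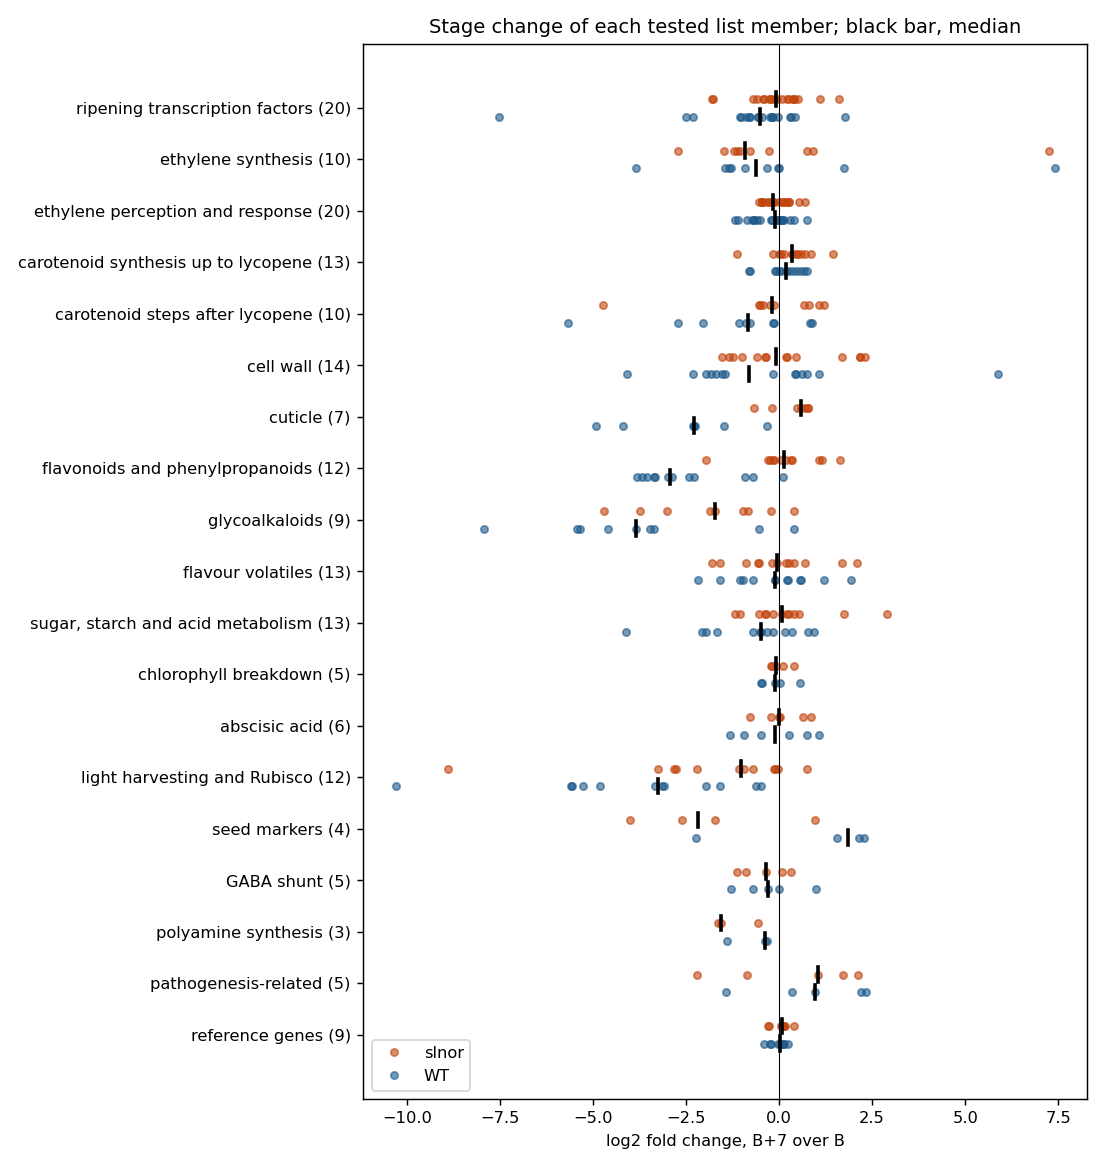
Log2 fold change from B to B+7 (horizontal axis) of each tested member of 19 gene lists, slnor above WT in each row, with the list's median as a black bar and the number tested in brackets. WT medians lie at −2.93 for flavonoids, −2.29 for cuticle and −3.25 for light harvesting, against 0.12, 0.59 and −1.01 in slnor. Points for genes with no count in a group depend on the fit's prior count.

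Sugar, starch and acid genes moved both ways in slnor. Of 13 tested, 6 rose, 4 fell and 3 did not pass in slnor (median 0.07), and 4 rose and 7 fell in WT (median −0.48). At least 2-fold changes were found in 2 rising and 2 falling members, beside 4.15% and 8.68% of all genes tested. No riser of that size had a checked name. The slnor median changed sign with library totals alone (−0.02) and without breaker replicate 1 (−0.02) or 3 (−0.05), and was 0.16 without breaker replicate 2. TIV1 (Solyc03g083910.5), the vacuolar invertase that splits sucrose in ripe fruit, had 8239, 7864 and 7838 CPM 7 days after breaker, against 7009, 6539 and 7251 CPM at breaker. It rose by 0.20 (adjusted p = 1.04e-04, SE 0.035), or by 0.11 with library totals alone, against a change of −0.17 in WT (difference 0.38 (adjusted p = 9.65e-06, SE 0.049)). AGPL3 (Solyc01g079790.4), a large subunit of the starch enzyme ADP-glucose pyrophosphorylase, had 2.21, 2.57 and 1.74 CPM 7 days after breaker, against 5.21, 5.73 and 3.92 CPM at breaker. It fell by 1.19 (adjusted p = 3.00e-05, SE 0.18), less than in WT by 0.88 (adjusted p = 0.0122, SE 0.263). GBSS1 (Solyc08g083320.4), the granule-bound starch synthase, chosen after its values were seen, had 120.0, 117 and 121 CPM 7 days after breaker, against 156, 145 and 150.4 CPM at breaker. Its change was −0.34 (adjusted p = 1.48e-06, SE 0.039) in slnor and −1.67 in WT (difference 1.33 (adjusted p = 1.15e-11, SE 0.057)).

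Abscisic acid is a hormone that also promotes ripening. Of its 6 genes tested, 2 rose, 2 fell and 2 did not pass in slnor, and 1 rather than 2 fell without replicate 2 of 7 days after breaker or replicate 1 of breaker. NCED1 (Solyc07g056570.1), the main fruit enzyme of its synthesis, had 273, 278 and 255 CPM 7 days after breaker, against 479, 406 and 510.0 CPM at breaker. It changed by −0.79 (adjusted p = 1.18e-08, SE 0.062) in slnor and −1.31 in WT (difference 0.52 (adjusted p = 1.22e-04, SE 0.087)).

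Steroidal glycoalkaloids are bitter defence compounds of green tomato. Of 9 genes tested, 7 fell, 1 rose and 1 did not pass in slnor, with a median of −1.73, and 8 fell in WT (median −3.85). In slnor 6 rather than 7 fell without replicate 2 of 7 days after breaker or replicate 2 of breaker. The difference between the changes was positive in 4 and not called in 5. The 1 riser, whose name was unchecked, also rose in WT. Summed over the 9 genes, slnor had 908, 919 and 839 CPM 7 days after breaker, against 719, 668 and 733 CPM at breaker. WT sums were 888, 906 and 888 CPM later and 725, 720.3 and 729.8 CPM at breaker. In slnor the 8 with checked names summed to 28, 28 and 29.8 CPM later, against 57.2, 63.2 and 58.7 CPM at breaker. GAME11 (Solyc07g043420.3), a dioxygenase, had 2.23, 2.23 and 2.03 CPM 7 days after breaker, against 17.4, 18.3 and 17.1 CPM at breaker. It fell by 3.02 (adjusted p = 8.60e-10, SE 0.192), less than in WT by 2.31 (adjusted p = 2.12e-05, SE 0.325). GAME18 (Solyc07g043500.1), a glycosyltransferase, had 0.168, 0.203 and 0.342 CPM 7 days after breaker, against 2.21, 4.2 and 3.11 CPM at breaker, a change of −3.73 (adjusted p = 1.66e-06, SE 0.436). GAME1 (Solyc07g043490.1), another glycosyltransferase, fell by 1.86 (adjusted p = 4.71e-04, SE 0.372) and differed from WT by 2.74 (adjusted p = 0.00213, SE 0.632). GAME12 (Solyc12g006470.2), a transaminase chosen after its values were seen, had 6.29, 7.83 and 6.61 CPM 7 days after breaker, against 13.1, 13.6 and 13.5 CPM at breaker. It fell by 0.96 (adjusted p = 6.83e-05, SE 0.157), with a difference of 2.89 (adjusted p = 1.12e-07, SE 0.258). GAME1, GAME11 and GAME18 lie in 1 cluster on chromosome 7, and reads of similar neighbours could be split.

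All 3 polyamine synthesis genes tested fell in slnor and in WT. The difference between the changes was negative in 2, which fell further in slnor, and positive in 1, which fell less. In WT, 2 rather than 3 fell without replicate 1 or 2 of 7 days after breaker or replicate 2 or 3 of breaker. Summed over the 3 genes, slnor had 1023, 1002 and 1079 CPM 7 days after breaker, against 1754, 1683 and 1664 CPM at breaker. WT sums were 1257, 1233 and 1227 CPM later and 3115, 3270 and 3188 CPM at breaker. Most of each sum came from the gene with the positive difference, and the 2 genes described next held little of it. ADC1 (Solyc10g054440.3), arginine decarboxylase, had 108, 101 and 103 CPM 7 days after breaker, against 325, 309.7 and 293 CPM at breaker. ODC (Solyc04g082030.1), ornithine decarboxylase, had 5.71, 4.79 and 4.51 CPM 7 days after breaker, against 14.4, 16.6 and 15.7 CPM at breaker. These enzymes open the routes to putrescine, and every later library was below every breaker library. The changes were −1.57 (adjusted p = 1.30e-11, SE 0.072) for ADC1 and −1.64 (adjusted p = 3.80e-09, SE 0.116) for ODC, against −0.38 and −0.32 in WT, with differences of −1.20 (adjusted p = 7.30e-08, SE 0.103) and −1.32 (adjusted p = 5.78e-06, SE 0.164). At breaker ADC1 averaged 309 ± 16.3 CPM in slnor and 58.9 ± 5.19 CPM in WT. Of 5 genes of the GABA shunt, which removes glutamate and GABA, 1 rose, 3 fell and 1 did not pass, and 2 rose without breaker replicate 2. In WT 1 rose, 3 fell and 1 did not pass. The difference between the changes was positive in 3 of these 5 genes and negative in 2. GAD2 (Solyc11g011920.2), a glutamate decarboxylase, had 23.2, 24.4 and 22.5 CPM 7 days after breaker, against 50.1, 60.2 and 43.4 CPM at breaker. It fell by 1.13 (adjusted p = 1.22e-07, SE 0.106) and by more than in WT (difference −0.83 (adjusted p = 2.88e-04, SE 0.152)).

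Pathogenesis-related genes went opposite ways in slnor. Of 5 tested, 3 rose and 2 fell, while in WT 4 rose and 1 did not pass. In slnor 2 rather than 3 rose with library totals alone, with a filter of at least 1 CPM, in the 6 slnor libraries alone, without any 1 library of 7 days after breaker, or without breaker replicate 3. PR1a (Solyc01g106620.2), a defence marker, had 13.9, 15.6 and 17 CPM 7 days after breaker, against 54.6, 97.6 and 62 CPM at breaker. Breaker replicate 2 stood above the other breaker libraries, yet all lay above the later ones. PR1a fell by 2.20 (adjusted p = 8.44e-09, SE 0.167) in slnor and rose by 0.97 in WT, a difference of −3.17 (adjusted p = 5.75e-08, SE 0.269). CHI3 (Solyc02g082920.4), a chitinase gene, had 29, 34.7 and 31.7 CPM 7 days after breaker, against 7.68, 6.79 and 7.66 CPM at breaker, a rise of 2.11 (adjusted p = 5.63e-11, SE 0.108) that exceeded that of WT by 1.76 (adjusted p = 6.93e-08, SE 0.152). NP24 (Solyc08g080640.2), an osmotin-like protein gene abundant in ripe fruit, had 1277, 1287 and 1454 CPM 7 days after breaker, against 612, 678 and 663 CPM at breaker. It rose by 1.04 (adjusted p = 8.23e-11, SE 0.055) in slnor and by 2.33 in WT (difference −1.29 (adjusted p = 8.24e-10, SE 0.078)).

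Seed and scaling checks were made with 2 further lists. Of 4 seed marker genes tested, 2 fell and 2 did not pass in slnor, and 1 fell in the 6 slnor libraries alone, with a filter of at least 1 CPM, or without replicate 1 or 2 of 7 days after breaker or replicate 2 or 3 of breaker. Their sum was 0.9, 1.2 and 0.976 CPM 7 days after breaker, against 7.54, 7.03 and 6.98 CPM at breaker. The gene Solyc06g060840.1, paired with an oleosin from memory with no name check, made up most of it, with 0.397, 0.676 and 0.179 CPM 7 days after breaker, against 7.32, 6.25 and 6.47 CPM at breaker. It fell by 4.0 (adjusted p = 2.81e-11, SE 0.195). In WT 2 of the 4 seed genes rose, 1 fell and 1 did not pass (median 1.86). None rose without WT replicate 2 of 7 days after breaker, and 1 rose without WT replicate 3 of that stage. The difference between the changes was negative in 2 and not called in 2. WT seed sums were 15.8, 18.8 and 15.8 CPM 7 days after breaker and 75.2, 67.8 and 69.8 CPM at breaker, above the slnor sums at each stage. Their part in other results was not tested. Of 9 reference genes used for fruit qPCR, 3 rose, 1 fell and 5 did not pass in slnor (median 0.08), and 1 rose with library totals alone (median −0.01). EF1a (Solyc06g005060.3), a translation elongation factor gene, had 1622, 1574 and 1697 CPM 7 days after breaker, against 1440, 1489 and 1466 CPM at breaker. Its rise of 0.15 (adjusted p = 3.99e-04, SE 0.03) was lost with library totals alone (0.06, adjusted p = 0.0817).

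Outside the lists, 4 identifiers with no name in the sources used here had the largest changes among genes with at least 10 CPM in the higher slnor group. Solyc02g072370.1 had 10.8, 11.6 and 13.1 CPM 7 days after breaker, against 0, 0.128 and 0.203 CPM at breaker, a log2 fold change of 6.61 (adjusted p = 2.44e-12, SE 0.264). Solyc02g065280.3 had 100.3, 101 and 97.4 CPM 7 days after breaker, against 0.934, 2.34 and 2.39 CPM at breaker, a change of 5.68 (adjusted p = 3.10e-15, SE 0.131). Both also rose in WT, by 5.35 and 3.97. Solyc10g005320.3 had 0.0458, 0 and 0 CPM 7 days after breaker, against 11.9, 13.8 and 8.92 CPM at breaker, a change of −9.31 (adjusted p = 3.21e-09, SE 0.654). Solyc05g006220.3 had 0.061, 0.389 and 0 CPM 7 days after breaker, against 28.1, 23.7 and 18.9 CPM at breaker, a change of −7.32 (adjusted p = 2.72e-10, SE 0.425). They fell in WT as well, with changes of −4.25 and −4.63.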

How the data were processed

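Fruit RNA of slnor and WT tomato was sequenced 7 days after breaker and at breaker, in 3 libraries per group. Raw gene counts were deposited by the authors as 1 table, with a column per library. They also deposited 1 table per library whose values were taken as FPKM, a unit the tables do not name. Dividing count by FPKM and by library total gave the same gene length within 1% in all libraries for 100% of the 7290 genes that reached 1000 counts in every library. Per the submitters' processing notes, the tools were HISAT, UMI-tools, StringTie and edgeR, and neither versions nor their roles are stated. Kit, strand setting, build and annotation, and whether counts are reads or molecules, were not given in the sources used here.

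Of 34075 genes listed, 24155 had a count and 20070 passed edgeR's filterByExpr, holding 99.988% of the counts. One quasi-likelihood model (edgeR 4.0.16, R 4.3.3; glmQLFit and glmQLFTest, TMM scaling, 4 group means, all 12 libraries) gave the stage change in slnor, that in WT and their difference. The common biological coefficient of variation was 7.39%. All adjusted p-values are Benjamini-Hochberg values over all genes tested, called under 0.05. The script was tested on simulated counts. FPKM served only for levels compared between genes. Bounds for genes with no count in a group cover counting error only. No replicate pair agreed within sampling noise, with a chi-square of 4.655 to 14.18 per degree of freedom. Alternatives were library totals alone, RLE scaling, other low-count filters, DESeq2 1.42.0, a replicate block, the 6 slnor libraries alone and leaving out each library in turn.

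The comparison, its 19 gene lists and the way genes were named were chosen with earlier results of these data known. The 208 name and identifier pairs were written from memory of published nomenclature, 201 are in the count table, and 162 were checked against RefSeq names (assembly SLM_r2.1) on the same chromosome within 7% of its gene order. That tolerance, and the alternative names used, were set after seeing the RefSeq table. Named were 33 key genes, then in each list up to 3 rising and 3 falling genes with the largest changes of at least 2-fold, no overlap and at least 1 CPM, failing which the most abundant. Marker lists also gave their most abundant gene. Unchecked names were counted but not named, except in the seed list, where no name could be checked. The 7 genes ACS8, F3H, LOXA, GBSS1, CAB5, RBCS-2A and GAME12 were added after their values were seen.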

Additional observations from a re-analysis of the deposited data

Results flagged for a closer look

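The difference between the stage changes, slnor minus WT on the log2 scale, passed the test in 4382 genes upward and 4092 downward, and in the named genes below.

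Among the regulators it was 0.46 for NOR, 0.68 for RIN, 0.67 for CNR, 0.58 for TAGL1, 1.29 for FUL1, 0.42 for FUL2, 0.82 for AP2a, 0.47 for NOR-like1, 0.81 for DML2 and −3.53 for NAC1. In ethylene synthesis and response it was 0.78 for ACS2, −0.83 for ACS4, 0.12 for ACO1, −0.20 for ACO3, 1.13 for ACO6, 0.40 for NR, 0.20 for ETR4, 0.55 for E4 and 0.39 for E8. Carotenoid genes stood at −0.34 for GGPS2, 0.44 for PSY1, 0.91 for ZISO and 1.36 for BCH2.

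In the cell wall the difference was 1.73 for PG2a, 1.74 for TBG4, −0.19 for EXP1, 0.63 for CEL2, 1.06 for CEL1, 3.48 for MAN4a, 0.48 for PG-beta, −3.56 for XYL1 and 1.41 for RGL. In the peel pathways it was 2.87 for CER6, 4.51 for MYB12, 3.85 for CHS1, 3.93 for CHS2 and 3.68 for F3H. Glycoalkaloid genes stood at 2.74 for GAME1, 2.89 for GAME12 and 2.31 for GAME11, and volatile genes at 1.97 for LOXA, 1.54 for LOXC, −0.26 for ADH2 and −1.68 for AADC1A.

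For sugar, starch and abscisic acid it was 0.38 for TIV1, 0.88 for AGPL3, 1.33 for GBSS1 and 0.52 for NCED1. Photosystem and Rubisco genes stood at 0.39 for PSBO, 2.0 for PSBQ, 1.14 for RBCS-2A, 2.49 for RBCS1 and 2.32 for CAB7. The remaining values were −1.78 for the seed identifier Solyc06g060840.1, −0.83 for GAD2, −1.20 for ADC1, −1.32 for ODC, −3.17 for PR1a, 1.76 for CHI3 and −1.29 for NP24.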

How the results depend on the processing

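All counts of genes called, upward or downward and with or without the 2-fold limit, stayed within 1.5 times their main value under every alternative run for them (172 of 172 values). Which direction held more calls did change. In slnor 5261 genes were higher and 5212 lower, but 3911 and 6754 with library totals alone, 5128 and 5206 in the 6 slnor libraries alone, and 5065 and 5094 with a filter of at least 1 CPM. In WT 6659 were higher and 6449 lower, but 6471 and 6595 with library totals alone, 6464 and 6606 with RLE scaling, and 6421 and 6625 with DESeq2. Differences between the changes were positive in 4382 genes and negative in 4092, but in 3726 and 5225 with library totals alone. Of 73 named genes, 6 changed call in slnor under some alternative and 9 changed the call of the difference from WT, and those stated in the report stand beside their results there. The difference also became called without 1 library for CYCB, CrtR-b1, CTOMT1, CHI1 and LCYE (5.41 without WT replicate 3 of 7 days after breaker), and with DESeq2 for GAME18 and CrtR-b1. CrtR-b1 was also called with RLE scaling and other low-count filters.

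Same-numbered slnor libraries did not deviate alike from their group means. Deviations from the group means over 10975 genes correlated by 0.071, −0.195 and −0.283 between same-numbered libraries, and by −0.006, −0.009 and −0.019 in WT. Between differently numbered slnor libraries the correlations ran between −0.267 and 0.301, the highest being 0.301 for later replicate 3 with breaker replicate 2, 0.265 for later replicate 1 with breaker replicate 3 and 0.17 for later replicate 2 with breaker replicate 3. In WT they ran between −0.045 and 0.064. Deviations from a mean of 3 libraries cancel out within each group, so these correlations cannot show whether libraries were paired. With the replicate number as a block, 10237 genes were called in slnor, against 10473 without it.

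Each group had 3 libraries with totals of 50714230 counts or more, and genes under about 1 CPM, such as ACS8, LCYE and GAME1 late in slnor, rest on few counts.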
